A study of Saccharomyces cerevisiae with 4 samples.

Results

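The lower part of glycolysis in budding yeast (Saccharomyces cerevisiae) was followed through 10 genes, chosen by name: TDH1 (YJL052W), TDH2 (YJR009C), TDH3 (YGR192C), PGK1 (YCR012W), GPM1 (YKL152C), GPM2 (YDL021W), ENO1 (YGR254W), ENO2 (YHR174W), CDC19 (YAL038W) and PYK2 (YOR347C). They are 10 of 6207 reading frames in the deposited table. Of the 10, 9 had a value on all 4 arrays and entered the test, as did 4788 reading frames in all, and GPM2 had values on arrays 3 and 4 alone.

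An slt2 mutant was grown in rich medium (SLT2 encodes the mitogen-activated protein kinase of the cell wall integrity pathway). Each culture was split, with 5 units per ml of zymolyase 100T, a preparation that digests wall glucan, given to the treated part and nothing to the untreated part, and RNA was taken at 3 h. RNA from 2 cultures was compared on 4 two-colour arrays, with treated RNA in Cy3 on arrays 1 and 3 and in Cy5 on arrays 2 and 4. Both parts carry the slt2 mutation, no wild type strain serves as a group, and the sources used here do not give the strain background, the allele or the number of clones. The treated channel of array 3 is labelled wild type in its source field and slt2 mutant in its title. SLT2 (YHR030C) had a value on 0 of 4 arrays and checks neither label.

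These enzymes carry triose phosphate to pyruvate. Glyceraldehyde-3-phosphate dehydrogenase (TDH genes) makes the NADH that fermentation later uses up, phosphoglycerate kinase (PGK1) and pyruvate kinase (CDC19, PYK2) make ATP, and phosphoglycerate mutase (GPM genes) and enolase (ENO genes) rearrange the carbon skeleton between them. In cells growing on glucose the messages of TDH3, ENO2, PGK1, GPM1 and CDC19 are among the most abundant, while PYK2 is repressed by glucose and is a minor form.

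Values are log ratios of both channels, taken as log2. The numerator is not stated. The ratios of arrays with opposite dyes correlated negatively across genes (r from -0.60 to -0.29), so 2 arrays were turned to bring all 4 into the same orientation. Positive values then lie on the side of HSP12, a small heat shock protein gene (mean 2.63 ± 0.58, SD, n = 4 arrays), and negative values on the side of TIP1, a cell wall mannoprotein gene (-1.17 ± 0.45). Which side is higher with zymolyase was not settled by labels or values. The number of arrays limits the precision, and signal strength and saturation are unknown because scanner intensities were not used here. Isozyme genes are alike in sequence, and the sources used here do not give the make of the spots. Cross-hybridisation between isozymes was not tested.

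PYK2, the glucose-repressed pyruvate kinase, was the single tested lower glycolysis gene that was called. Failing the test does not show that a gene stayed the same. Its values were 0.68, 0.71, 0.99 and 0.76 on arrays 1 to 4. All 4 arrays placed it on the HSP12 side, with little spread between them. The mean was 0.79 ± 0.14 (SD, n = 4), a 1.73-fold difference (limma, adjusted p = 0.0308). Its 95% confidence interval ran from 0.31 to 1.27 in log2, which is 1.24-fold to 2.40-fold. Thus 1 of 9 tested members was called toward HSP12 and 0 toward TIP1, where the shares over all 4788 tested genes were 4.34% and 0.209%.

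The PYK2 change lay close to the limit of the test. It was the 191st largest of 208 called changes on the HSP12 side, whose median was 1.14 and whose smallest was 0.75. Its spread over arrays was among the narrow ones, as 12 of the 208 called genes had a smaller SD. PYK2 lost the call without array 1, 2 or 3 (limma, adjusted p = 0.15, 0.0885 and 0.122), while its mean stayed between 0.72 and 0.82 whichever array was left out. Ratios on arrays 3 and 4 went up with coding length across 4599 genes (Spearman's rho 0.441 and 0.399), and those on arrays 1 and 2 did not (-0.01 and -0.178). PYK2 has a coding length of 1521 bases, and with the length trend removed its mean was 0.72 (limma, adjusted p = 0.0533).

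CDC19, the main pyruvate kinase, had values of -0.07, 0.31, 0.04 and -0.11. It lay on both sides and its mean of 0.04 ± 0.19 (SD, n = 4) did not pass the test (limma, adjusted p = 0.971). The confidence interval ran from -0.44 to 0.52, which holds changes of up to 1.43-fold toward the HSP12 side. PYK2 exceeded CDC19 on 4 of 4 arrays, by 0.75, 0.40, 0.94 and 0.88. The mean difference was 0.74 ± 0.24 (SD, n = 4; exact two-sided sign-flip permutation test, p = 0.125, the smallest that 4 arrays allow; 0.208 adjusted over 5 pairs). The test takes the 4 arrays as separate units although they stem from 2 cultures, and over 2 cultures the smallest p would be 0.5. The coding lengths of PYK2 and CDC19 are 1521 and 1503 bases.

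**Figure D1:**
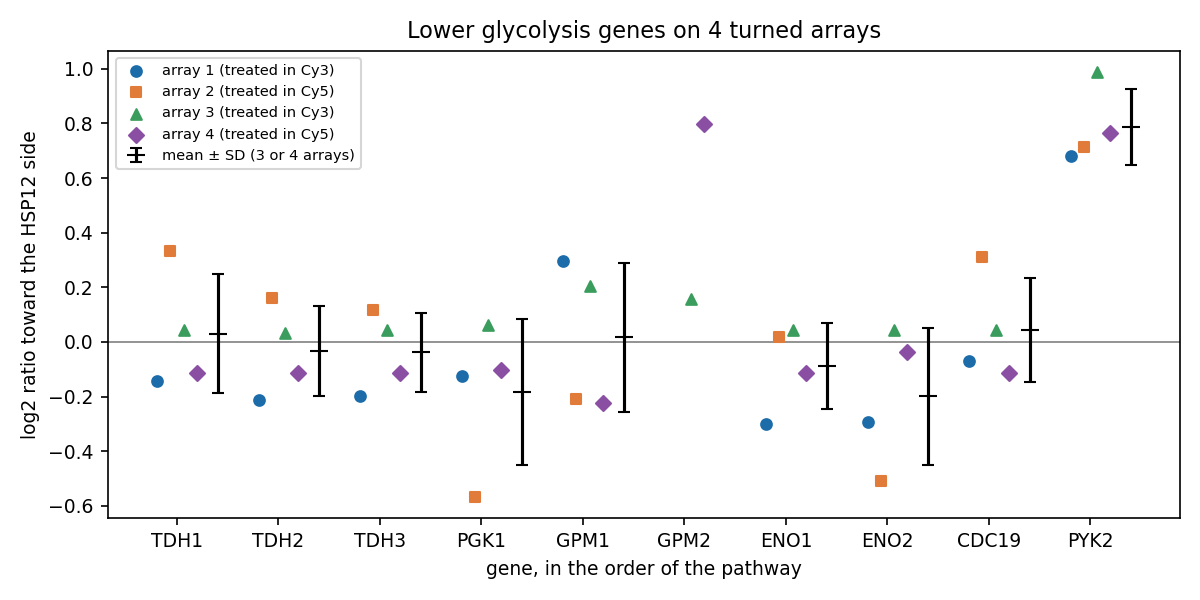
Log2 ratio toward the HSP12 side (vertical axis) of the 10 lower glycolysis genes on arrays 1 to 4 after turning, with symbols for arrays and black bars for mean ± SD over 4 arrays. PYK2 sits between 0.68 and 0.99 on all arrays, GPM2 has 2 points and no mean, and the other 8 genes scatter on both sides of 0.

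The glyceraldehyde-3-phosphate dehydrogenase genes showed the same small pattern. TDH3, the main form, had -0.20, 0.12, 0.04 and -0.11 on arrays 1 to 4. TDH2 had -0.21, 0.16, 0.03 and -0.11. TDH1, a form associated with slow growth and stationary phase, had -0.14, 0.33, 0.04 and -0.11. In each gene array 2 was highest, arrays 1 and 4 lay on the TIP1 side, and the mean was within 0.04 of 0.

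None of the 3 TDH genes passed (limma, adjusted p from 0.973 to 0.982). Their means were 0.03 ± 0.22 for TDH1, -0.03 ± 0.16 for TDH2 and -0.04 ± 0.14 for TDH3 (SD, n = 4 each). TDH1 exceeded TDH3 on 4 of 4 arrays, by 0.06, 0.22, 0.0002 and 0.0007, with most of the mean difference of 0.07 ± 0.10 on array 2 (exact sign-flip permutation p = 0.125, the smallest possible; 0.208 adjusted). On arrays 3 and 4 TDH1 and TDH3 were practically tied, and the exact p rests on the signs of those ties too. TDH1 also exceeded TDH2 on 4 of 4 arrays, by 0.06 on average but by 0.0003 on array 4, with the same p-values in the exact test. TDH2 and TDH3 differed by less than the spread between arrays (mean 0.005 ± 0.026, SD, n = 4; exact p = 0.875).

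PGK1, the only phosphoglycerate kinase gene of yeast, had -0.12, -0.57, 0.06 and -0.10. Array 2 stood lowest and the mean of -0.18 ± 0.27 (SD, n = 4) did not pass (limma, adjusted p = 0.864). ENO2, the enolase form favoured on glucose, was similar, with -0.29, -0.51, 0.04 and -0.04 and a mean of -0.20 ± 0.25 (adjusted p = 0.85 by limma). ENO1, the form also made on other carbon sources, had -0.30, 0.02, 0.04 and -0.11, with a mean of -0.09 ± 0.16 (adjusted p = 0.936 by limma). The enolases differed mainly on array 2, where ENO1 exceeded ENO2 by 0.53, and the mean difference of 0.11 ± 0.28 was below the spread between arrays (exact sign-flip permutation p = 1, n = 4).

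On arrays 3 and 4 several of these genes held practically the same number. As deposited, TDH1, TDH3, ENO1 and CDC19 had 0.0432, 0.0430, 0.0426 and 0.0432 on array 3, and 0.1132, 0.1139, 0.1133 and 0.1143 on array 4. Of 4822 genes with a value on both arrays, these 4 were the only ones with both values within 0.001 of those of 3 or more other genes, while 4770 had no such partner. TDH3 and ENO1 had the other members of this group as their 3 partners. TDH1 and CDC19 lay more than 0.001 apart on array 4. They reached 3 partners only by counting TEF2, a gene outside glycolysis (0.0441 on array 3 and 0.1137 on array 4). On arrays 1 and 2 no gene of 5320 reached 3 partners, and TDH3 had none. The window of 0.001 was chosen after the values were seen.

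TDH2 and ENO2 each came within 0.001 of TDH3 on 1 array, TDH2 with 0.1135 on array 4 and ENO2 with 0.0429 on array 3. A match on a single array was common. Counting TDH3 itself, 15 genes lay within 0.001 of it on array 3 and 11 on array 4, with 5 members each time. On array 1 there were 18 such genes and on array 2 there were 7, with TDH3 the 1 member. The 6 TDH, ENO and CDC19 values spanned 0.0113 on array 3 and 0.0761 on array 4. On array 1 they spanned 0.231, and on array 2 0.842. The SDs of all ratios went the other way, with 0.642 and 0.630 on arrays 3 and 4 and 0.356 and 0.450 on arrays 1 and 2. As the shared numbers have the same sign on arrays of opposite dye orientation, they fall on opposite sides after turning. What gave these spots the same ratio was not tested.

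On arrays 1 and 2 alone the means were 0.10 for TDH1, -0.03 for TDH2, -0.04 for TDH3, -0.14 for ENO1, -0.40 for ENO2, -0.34 for PGK1 and 0.12 for CDC19, with no test. On arrays 3 and 4 the same 7 genes had means between -0.04 and 0.002. PYK2 was on the HSP12 side in both pairs of arrays, with 0.70 on arrays 1 and 2 and 0.88 on arrays 3 and 4.

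**Figure D2:**
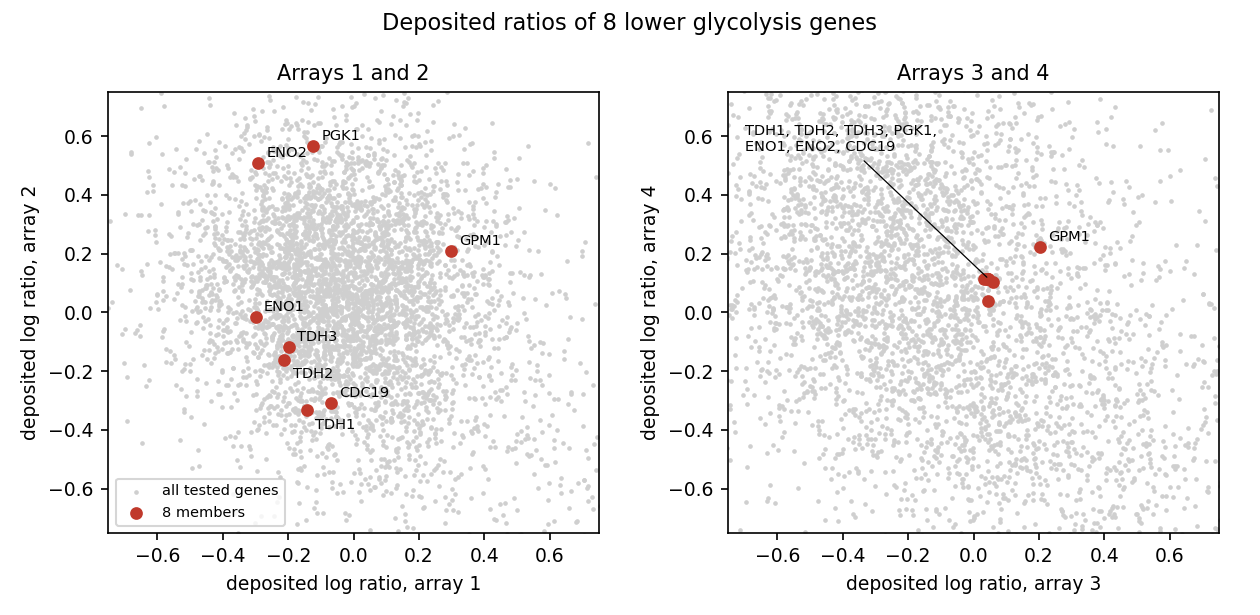
Deposited log ratios of array 2 against array 1 (left) and of array 4 against array 3 (right), with 8 lower glycolysis genes in red and all tested genes in grey; PYK2 and GPM2 are not drawn in red. The TDH, ENO, PGK1 and CDC19 genes run from -0.33 to 0.57 along the left vertical axis and fall close together on the right.

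GPM1, the essential phosphoglycerate mutase gene, had as deposited 0.30, 0.21, 0.20 and 0.22 on arrays 1 to 4. Its ratio kept the same sign and nearly the same size whichever dye carried the treated RNA (0.23 ± 0.04, SD, n = 4). Turned, the values became 0.30, -0.21, 0.20 and -0.22, alternating with the dye, with a mean of 0.02 ± 0.27 that did not pass (limma, adjusted p = 0.99). GPM1 was 1 of 9 members with the same sign on all arrays as deposited, against 12.1% of all tested genes. After turning, PYK2 was 1 of 9 members on the same side on all arrays, against 30.3%.

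GPM2, a mutase homologue without a proven mutase role, had 0.16 on array 3 and 0.80 on array 4. Both lay on the HSP12 side, but GPM2 had no value on arrays 1 and 2 and was not tested. GPM2 lay 0.05 below GPM1 on array 3 and 1.02 above it on array 4, so the pair has no stable order.

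**Figure D3:**
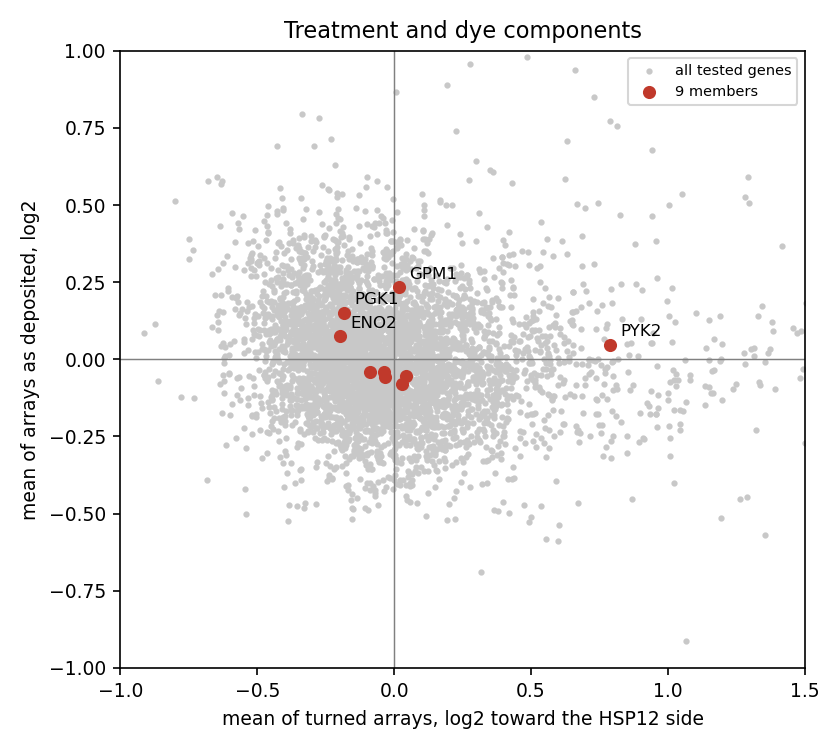
Mean of the 4 turned arrays (horizontal axis, log2 toward the HSP12 side) against the mean of the 4 arrays as deposited (vertical axis, log2), with 9 members in red and all tested genes in grey. PYK2 is displaced along the horizontal axis (0.79, against 0.05 as deposited) and GPM1 along the vertical axis (0.02, against 0.23).

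Apart from PYK2 the side of a value varied with the array. On array 3 the 9 tested members all lay on the HSP12 side, from 0.03 to 0.99, and on array 4 all but PYK2, 8 of 9, lay on the TIP1 side. On array 1 there were 7 on the TIP1 side and on array 2 there were 3. The median over all tested genes was -0.02, -0.05, -0.10 and -0.03 on arrays 1 to 4 after turning. The share of all tested genes on each side was not counted per array. Over the 9 members the median of the mean values was -0.03, close to the -0.06 over all tested genes.

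Genes with a similar pattern over the 4 arrays were sought for the members of largest size by the root mean square difference. For PYK2 they were PEP4, the vacuolar protease A gene (difference 0.120; mean 0.77, limma adjusted p = 0.0371), YAK1, a protein kinase gene (0.123; mean 0.74, adjusted p = 0.0542), and ATG42, a vacuolar carboxypeptidase gene (0.136; mean 0.77, adjusted p = 0.0388). For ENO2 they were UTP13 (0.058), MCM6 (0.082) and NSR1 (0.086), none of which passed (limma, adjusted p from 0.801 to 0.85). Likeness over 4 arrays is a description of these values. As the genes were picked by it, their means and p-values lie near those of the member by construction.

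Pairs of paralogues for other carbohydrate enzymes were set beside the lower glycolysis pairs, with no test between pairs. Of 8 such pairs taken from general knowledge, 7 had values on all 4 arrays, and in 6 of these the first gene exceeded the second on every array. Pairs and the order of genes within them were chosen with earlier results of these data known. This count therefore describes the chosen pairs and is no test. The largest mean difference was 3.59 ± 0.63 (SD, n = 4) for NQM1 over TAL1, the transaldolases. GPD1 exceeded GPD2, both glycerol-3-phosphate dehydrogenase genes, by 2.31 ± 0.47. For SOL4 over SOL3, the phosphogluconolactonase genes, it was 2.06 ± 1.25, with 0.28 on array 3. PGM2 over PGM1, the phosphoglucomutases, had 1.96 ± 0.66, HXK1 over HXK2, the hexokinases, 1.32 ± 0.58, and TKL2 over TKL1, the transketolases, 1.08 ± 0.39.

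The PYK2 over CDC19 difference of 0.74 lay below those 6 and above GLK1 over EMI2 (0.25 ± 0.20, SD, n = 4), where both genes passed. GND2 over GND1, the phosphogluconate dehydrogenases, had 0.30 ± 0.22 on 3 arrays. The first gene passed in 7 of the 7 pairs with 4 arrays and the second in 1, counts that also depend on the chosen order. SOL4 lay on the TIP1 side on array 3 (-0.44) and lost its call without array 1 or 2 (limma, adjusted p = 0.125 and 0.552), with 4 separate arrays (0.0805), with a culture block (0.107), after scaling (0.111) and with the length trend removed (0.0881). EMI2 lost it without array 1 or 2 (limma, adjusted p = 0.0569 and 0.109) and TKL2 without array 1 (0.0625).

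**Figure D4:**
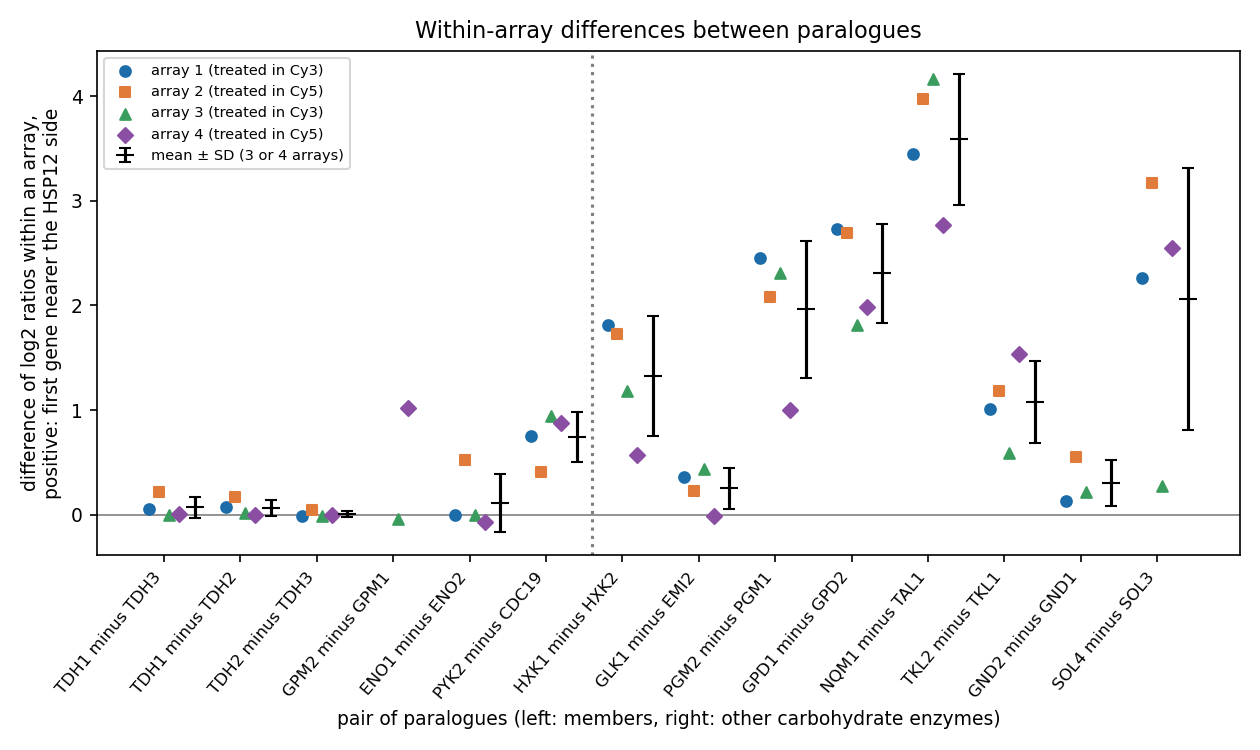
Difference of log2 ratios between paralogues within each array (vertical axis), with member pairs left of the dotted line and other carbohydrate enzymes to the right; symbols are arrays and black bars mean ± SD over 3 or 4 arrays. The TDH pairs stay within 0.22 of 0 on every array, PYK2 over CDC19 lies between 0.40 and 0.94, and 6 pairs on the right have means above 1.0.

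Along the rest of the route from glucose to ethanol the called genes lay in upper glycolysis. Of 8 tested upper glycolysis genes, 2 were called, where the shares over all tested genes were 4.34% toward HSP12 and 0.209% toward TIP1. They were HXK1 (1.33 ± 0.31, SD, n = 4, limma adjusted p = 6.21e-06) and the glucokinase gene GLK1 (1.16 ± 0.21, adjusted p = 0.000113). Both lay on the HSP12 side and both serve the first step of the pathway. The list was not tested as a set. The median of the list was 0.07. TPI1, the triose phosphate isomerase gene next to the TDH step, had -0.44 ± 0.38, and the phosphofructokinase gene PFK2 had 0.44 ± 0.76. Neither passed (limma, adjusted p = 0.51 and 0.513).

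In the list of 8 genes from pyruvate to ethanol 0 were called (limma), and 2 had an unadjusted p under 0.05, as had 551 of all 4788 tested genes. These 2 were the pyruvate decarboxylase genes PDC6 (0.69 ± 0.83, SD, n = 4) and PDC5 (0.54 ± 0.83). ADH1, the main alcohol dehydrogenase gene, had -0.36 ± 0.29. Of 2 tested genes of gluconeogenesis, PYC2, a pyruvate carboxylase gene, was called (0.83 ± 0.80; limma adjusted p = 0.0173) and PCK1, for phosphoenolpyruvate carboxykinase, was not (-0.24 ± 0.35). PYC2 had 0.10 and 0.28 on arrays 1 and 2, and 1.83 and 1.12 on arrays 3 and 4. It lost its call without any 1 of the 4 arrays (limma, adjusted p from 0.205 to 0.321), and with the length trend removed (0.2).

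The tested regulators of glycolysis did not pass. Of 6 tested, 0 were called by limma and 0 had an unadjusted p under 0.05, against 551 of all 4788 tested genes. The median was -0.04. GCR1, the main activator of glycolytic genes, had -0.32, -0.57, -0.17 and -0.40 on arrays 1 to 4. It lay on the TIP1 side on all arrays, with a mean of -0.36 ± 0.17 (SD, n = 4; limma adjusted p = 0.638). REB1, a DNA-binding factor, had -0.27 ± 0.22 and PFK27, a 6-phosphofructo-2-kinase gene, 0.17 ± 0.08.

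Of the 3 tested further homologues of the members all had a mean on the TIP1 side, as had 2753 of all 4788 tested genes. Of these 3 homologues 0 were called (limma), with 1 at an unadjusted p under 0.05, against 551 of all tested genes. GPM3, a mutase homologue, had -0.62 ± 0.38 (SD, n = 4). The enolase-related genes ERR1 and ERR2 had -0.47 ± 0.62 and -0.38 ± 0.58, with array 3 on the HSP12 side in both (0.24 and 0.42). These are near-identical subtelomeric copies, whose spots cannot be told apart with certainty. ERR1 passed without array 3 (limma, adjusted p = 0.0446).

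**Figure D5:**
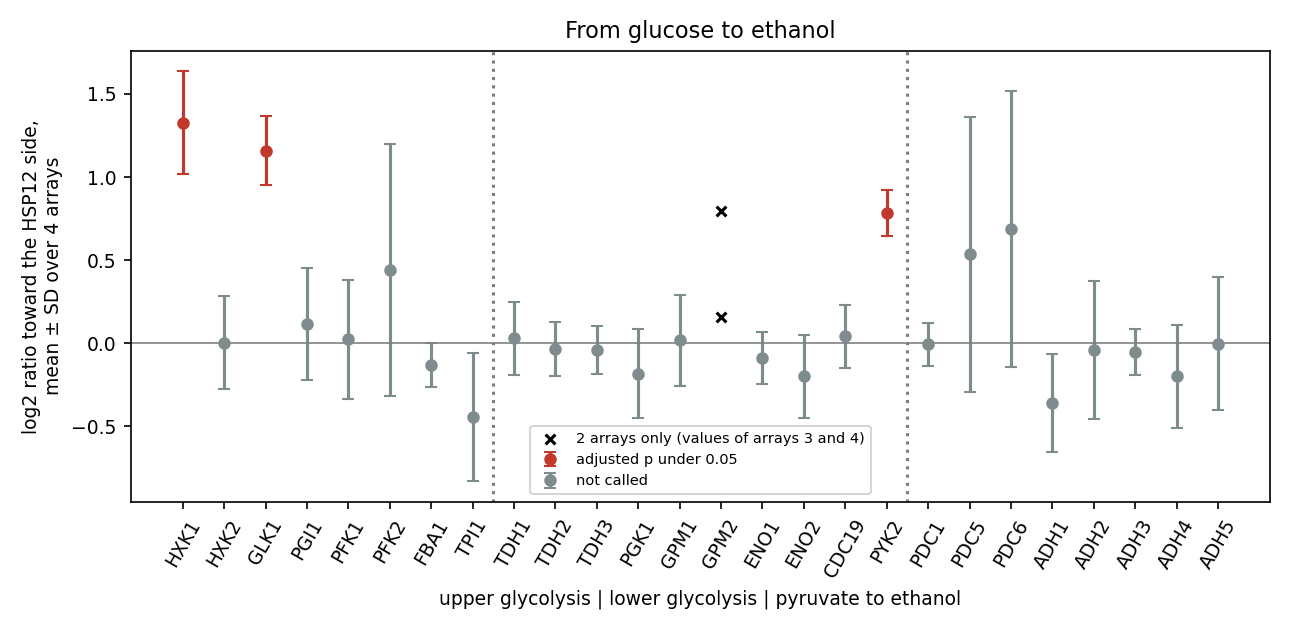
Mean log2 ratio toward the HSP12 side ± SD over 4 arrays (vertical axis) for genes from hexokinase to alcohol dehydrogenase in pathway order, red where the adjusted p was under 0.05. HXK1, GLK1 and PYK2 are the red points, at 1.33, 1.16 and 0.79, and GPM2 is shown by its values on arrays 3 and 4.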

How the data were processed

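The authors deposited 1 table of log ratios of both channels per array, treated here as log2 from their size. Per the labels, total RNA was labelled directly with Cy3-dUTP and Cy5-dUTP. The log base, numerator, background correction, normalization and filter were not given in the sources used here. Scale, centring and direction stay unknown. Arrays 1 to 4 held 5402, 5434, 5201 and 4931 values, with medians of -0.02, 0.05, -0.10 and 0.02. No centring or scaling was added, and 2 control spots were left out. Symbols and coding lengths came from the RefSeq table of assembly R64, which matched 5711 of 6207 reading frames.

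Arrays with treated RNA in 1 dye were turned because all pairs of opposite orientation correlated below 0. The arrays of a culture were averaged and limma (version 3.58.1, R 4.3.3; lmFit and eBayes) was fitted for both possible pairings of arrays into cultures, since labels do not tie them. Each gene took the larger p, adjusted by Benjamini-Hochberg over 4788 genes with calls under 0.05. SDs are over 4 arrays, which mix cultures and dyes. The pairing of arrays 1 with 2 and 3 with 4 gave every gene the same standard error of 0.24 (infinite prior degrees of freedom), and confidence intervals take the wider pairing. Pairs of paralogues were compared within arrays by an exact sign-flip permutation test over arrays, which ignores that arrays share cultures. The fit was also run on simulated data, with culture effects set for arrays 1 with 2 and 3 with 4 and with no length trend. That run does not show how the fit behaves under the other pairing or under such a trend. A count of promoter motifs was planned and not run.

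Named were the 10 members, SLT2, HSP12, TIP1, the called genes and up to 3 of the largest size in each of 5 pathway lists, both genes of each pair, and the 3 nearest genes of the 2 largest members. Members, lists and tests were chosen with earlier results of these data known.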

Additional observations from a re-analysis of the deposited data

Results flagged for a closer look

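The difference between ENO1 and ENO2 was 0.53 on array 2, against -0.01, -0.0003 and -0.08 on arrays 1, 3 and 4. Array 2 stood apart from the other arrays by more than the 95% limit for 4 values. This was the only such case among 68 sets of 4 values examined, where chance alone gives about 1 in 20.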

How the results depend on the processing

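The PYK2 change kept its side under every alternative run, from 0.70 to 0.88 apart from arrays not turned (0.05). It lost the call there, with the length trend removed and without array 1, 2 or 3; the cause was not tested. The 8 other tested members were called under none of the alternatives. Of 153 values of members under alternatives, 148 kept their side of the threshold or moved by less than 1 SD over arrays, and 5, all of PYK2, lost the call. The main counts were 208 genes on the HSP12 side, 10 on the TIP1 side and 1 member. Leaving out 1 array gave 75 to 173, 1 to 22 and 0 to 1, with 0 to 0 for gluconeogenesis and 0 to 1 for the further homologues. The pairing of arrays 1 with 4 and 2 with 3 alone gave 695 and 720 genes, 1 member, and 4 upper glycolysis, 3 pyruvate to ethanol, 1 regulator and 3 homologue genes. The TIP1 side held 18 genes with 4 separate arrays, 17 with a dye term, 5 after scaling and 23 with robust moderation, which called 1 pyruvate to ethanol gene. Gluconeogenesis had 0 called genes with separate arrays, a culture block, a dye term or scaling. Removing the length trend gave 105 and 5 genes, 0 members and 0 for gluconeogenesis. Without turning, 4 and 2 genes were called, with 0 members, 0 upper glycolysis and 0 gluconeogenesis genes. There GLK1, GPD1, TKL2, SOL4 and EMI2 changed sign (-0.11, -0.060, -0.13, -0.88 and -0.26), and the differences of TDH1 from TDH3, TDH1 from TDH2 and PYK2 from CDC19 became -0.040, -0.023 and 0.10. This follows from the construction, since unturned arrays cancel the treatment. The use of arrays 1 and 2 or 3 and 4 alone was added after seeing the data. Each ratio already pairs treated and untreated RNA of a split culture on 1 array. Signal over background was not used here.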

Other observations

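Several genes of sugar and pyruvate metabolism had different values on arrays 3 and 4 than on arrays 1 and 2. PDC5 and PDC6, pyruvate decarboxylase genes of 1692 bases, had means of 0.008 and 0.03 on arrays 1 and 2, and of 1.06 and 1.34 on arrays 3 and 4. PFK2, of 2880 bases, had -0.21 and 1.10. PDC1, the main decarboxylase gene and also of 1692 bases, had 0.003 and -0.02. Shorter genes differed too, with -0.35 and 0.34 for ADH5 (1056 bases) and -0.29 and 0.21 for ADH2 (1047 bases). Genes about as long as PDC5 went the other way, with -0.18 and -0.30 for PCK1 (1650 bases) and 2.19 and 1.72 for PGM2 (1710 bases). With the length trend removed on each array, the means over 4 arrays were 0.46 for PDC5, 0.61 for PDC6, 0.28 for PFK2 and -0.08 for PDC1, against 0.54, 0.69, 0.44 and -0.007 before.

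TEF2, which encodes the translation elongation factor 1 alpha, was chosen after its values were seen. As deposited it had 0.0441 on array 3 and 0.1137 on array 4, within 0.001 of 2 of the 4 lower glycolysis genes on both arrays. PDC1 had 0.0430 on array 3, the value of TDH3, and 0.0762 on array 4. With the window widened to 0.01, 5 genes lay around TDH3 on arrays 3 and 4, the 4 members and TEF2. On arrays 1 and 2 there were also 5, with TDH3 the 1 member among them. With a window of 0.0005, TDH3 and 1 other member were left on arrays 3 and 4.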
